A study of Mus musculus with 6 samples.

Results

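The genes described here are the cyclins, kinases and inhibitors that act in the G1 phase of the cell cycle, measured in a mouse pre-B cell line that carried more miR-26a or a sponge for the miR-26 family. They are the D-type cyclins Ccnd1, Ccnd2 and Ccnd3, the E-type cyclins Ccne1 and Ccne2, the cyclin-dependent kinases Cdk2, Cdk4 and Cdk6, and the CDK inhibitors Cdkn1b (p27) and Cdkn2c (p18). Every array probe that bears one of these gene names was taken, which gave 15 probes for 10 genes of 55681 probes on the array. The whole array design bears 34797 distinct names, transcript names included. Of the 15, 12 probes of 7 genes were bright enough to be tested, among 20168 probes tested in all.

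RNA came from 1676 cells, a line of B cell precursors with the genotype SLP-65-/- LAT-/-, which lacks a pair of adaptor proteins of pre-B cell receptor signalling and stays at the pre-B cell stage. The 6 arrays fall into 3 groups of 2. One group was transduced with a control vector, one with a retroviral vector for hsa-miR-26a-2 and one with a miR-26 sponge, an RNA that carries many binding sites and takes up miR-26 family members. All cells were kept with IL-7, selected with puromycin and carry both deletions, so that deletion is part of every group and of no comparison. The 2 arrays of a group come from 2 independent experiments with separately made clones of the same line. The control was an empty vector, and mature miRNAs were not measured on these arrays, so neither overexpression nor sequestration is checked by them. The question for each gene was whether its transcript differed between the miR-26a cells, the sponge cells and the control cells.

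Cells leave G1 when D-type cyclins, bound to CDK4 or CDK6, and E-type cyclins, bound to CDK2, phosphorylate the retinoblastoma protein and release E2F transcription factors that switch on S phase genes. p18 and its relatives bind CDK4 and CDK6, and p27 binds the cyclin E complex with CDK2. Pre-B cells divide under signals from the IL-7 receptor and the pre-B cell receptor, and cyclin D3 is known to be needed for their expansion. A miRNA recognises a transcript mainly through its seed, bases 2 to 8.

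The mature miRNAs of the family are shown first because their shared seed sets which words count as a match, with the seed in capitals (RefSeq, GRCm38.p6). The sequence of miR-26a-5p is encoded at chr9:119031811-119031832 and at chr10:126995543-126995564, and that of miR-26b-5p at chr1:74394324-74394344, all on the plus strand. A stretch of the Ccne1 probe A_66_P125327 follows, the last 30 bases (mm9 chr7:38885574-38885603, minus strand), because it holds the 6-letter word ACTTGA, in capitals, which pairs with bases 2 to 7 of either miRNA.
mmu-miR-26a-5p: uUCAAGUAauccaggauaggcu
mmu-miR-26b-5p: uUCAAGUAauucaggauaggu
Ccne1, end of probe A_66_P125327: tcagccttatttattgcttcaaaACTTGAg
The word was sought on the printed strand of each 60-base probe, which has the sense of the transcript. It stands in 1 of the 15 probes (6.67%) and in 1091 of all 55681 probes (1.96%). The longer words TACTTGA and ACTTGAA stand in none of the 15 and in 0.431% and 0.7% of all probes. A probe covers a small part of a transcript, so these shares describe the probes and not the whole messages.

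All 12 pre-B cell marker genes listed had a probe well above background on every array, and the median log2 signal of the list was 12.4 to 13.1. Within that list 3 of 14 tested probes were lower with miR-26a than in the control, where 5.14% of all probes tested were lower. The number higher was 0, where 4.5% of all probes were higher. The 3 lower probes are named next. These were Rag2 at -3.36 (adjusted p = 0.00105) and Rag1 at -2.47 (adjusted p = 0.00555), which encode the recombinase of immunoglobulin genes, and Dntt at -1.12 (adjusted p = 0.00548), which encodes terminal transferase. They were lower against the sponge too, by -3.46, -2.36 and -1.19 on the log2 scale, as was 1 Pax5 probe at -0.36 (adjusted p = 0.0280). The log2 of the summed signal of the list was 18.95 to 19.03 in the control, 18.91 to 18.99 in the miR-26a and 18.93 to 19.06 in the sponge cells. What part the shift of these markers had in the changes of the G1 genes with miR-26a was not tested.

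Some markers of other cell types were measured as well. Probes of 2 of 6 T cell genes (Cd3e and Cd4) and of 3 of 9 myeloid genes (Itgam, Csf1r and Elane) were well above background on every array, with Cd4 A_55_P2013655 at 9.29 to 9.76 and Itgam A_55_P1977934 from 11.30 up to 11.996 on the log2 scale, while Cd3g, Cd14 and S100a8 were not on any. The same held for 2 of 5 erythroid genes, 1 of 6 stromal genes and 3 of the 4 plasma cell genes on the array, the last list taken because IL-7 came from a plasmacytoma line. Of these lists, the dimmer Itgam probe A_55_P1977929 was lower with miR-26a than in the control, at -0.82 (adjusted p = 0.00720). The bright Itgam probe A_55_P1977934 changed by 0.06 (adjusted p = 0.744). No other tested probe passed in any comparison. The array's probes for Blnk (which encodes SLP-65) and Lat, the genes deleted in these cells, gave log2 signals of 14.9 to 15.6 and 10.1 to 10.3. Whether they lie in the deleted parts is not given in the sources used here, so they do not check the deletions. From 48.6% to 50.2% of spots were well above background on an array, and 0 were saturated.

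Of the D-type cyclins, Ccnd3 was measured by both of its probes and the others were not detected. Ccnd1 (A_66_P111562) gave processed signals of 9.89 and 2.30 in the control, 4.21 and 2.34 in the miR-26a and 2.58 and 4.67 in the sponge cells, in the scanner's arbitrary units. Ccnd2 (A_52_P53906) gave 2.95 and 3.18, 2.84 and 2.97, and 2.97 and 2.98 in the same order. Both were not well above background on any of the 6 arrays, so no fold is given. The lowest signal of a probe that was well above background lay between 5.02 and 7.48, depending on the array. This is no limit of detection, since each spot is judged on its own. The Ccnd1 signal of 9.89 in control replicate 1 was above that array's lowest value of 6.765. The Ccnd2 probe is the gene's only one here (mm9 chr6:127098696-127098755, minus strand). It is shown because the value of Ccnd2 rests on this 1 stretch.
Ccnd2, probe A_52_P53906: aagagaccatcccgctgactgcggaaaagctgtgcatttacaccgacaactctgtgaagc

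Among the E-type cyclins, the only probe of Ccne2 (A_65_P10671) was likewise not well above background on any array. Its processed signals were 6.98 and 2.83 in the control, 2.14 and 2.55 in the miR-26a and 5.69 and 8.61 in the sponge cells. The letters of this probe hold 15% G and C, against 30% to 55% in the 12 probes tested, and what part this played in its signal was not tested. Ccne1, whose product pairs with CDK2, was measured by both of its probes.

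**Figure D1:**
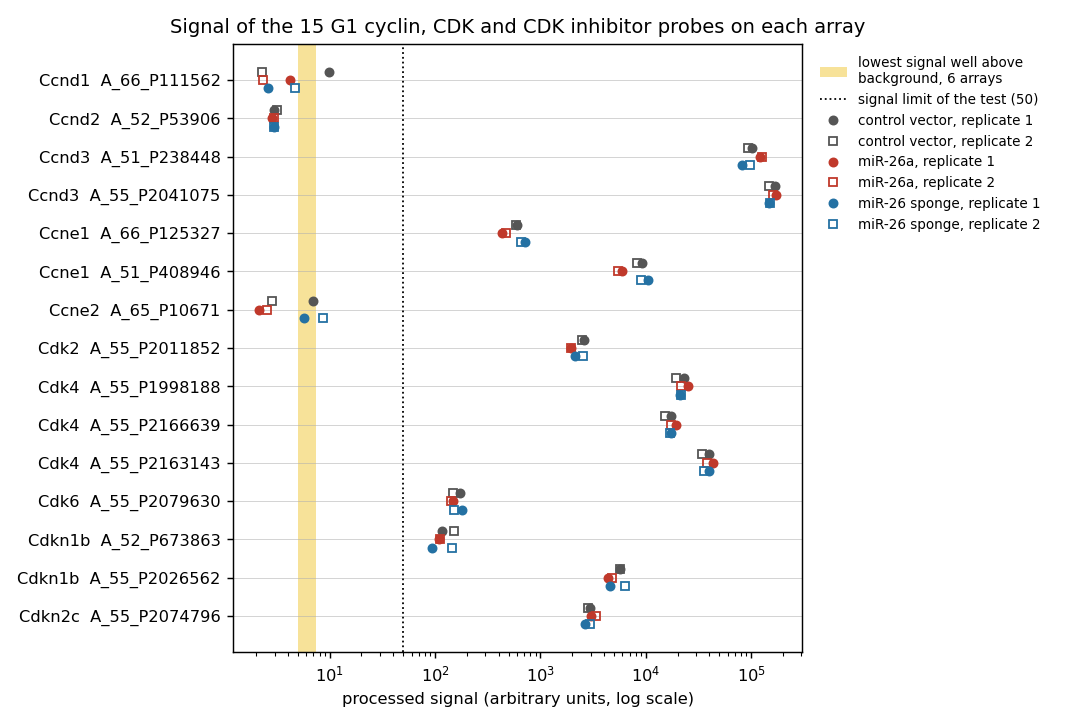
Processed signal (arbitrary units, log axis) of each of the 15 probes on each of the 6 arrays, with control in grey, miR-26a in red and sponge in blue, filled circles for replicate 1 and open squares for replicate 2. The yellow band spans the lowest signal well above background on the 6 arrays, 5.02 to 7.48, and the dotted line is the limit of 50 used for testing. The probes of Ccnd1, Ccnd2 and Ccne2 lie between 2.14 and 9.89, and the other 12 lie above the limit.

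For the tested probes, values are log2 signals after quantile normalization, which gives each array the same distribution, so every change is relative to the rest of that array. A mean signal of a culture cannot tell fewer cells with a transcript from less transcript per cell. limma was fitted to the 6 arrays together, blocked on experiment, and adjusted p-values cover all 20168 probes. They rest on 2 arrays a group. Where the arrays of a group are said to lie apart from others, this only describes the values listed. The share of all probes that separate in such a way was not counted. The titles of the 2 control arrays point to an earlier deposit. What part this had in the 2 comparisons against the control, Cdk2 included, was not tested.

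With miR-26a, Ccne1 and Cdk2 were lower than in the control cells. They account for the 2 of 12 tested probes that were lower at an adjusted p under 0.05, 16.7%, where 5.14% of all probes tested were lower. None of the 12 was higher at that threshold, where 4.5% of all probes were. At an unadjusted p under 0.05, 4 of the 12 were lower, beside 13% of all probes, and 3 were higher, beside 14.3%. The median log2 change of the 12 was -0.02, and that of all probes 0.01.

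The brighter Ccne1 probe, A_51_P408946, read 13.15 and 13.11 in the control, 12.55 and 12.50 in the miR-26a and 13.27 and 13.07 in the sponge cells. Both miR-26a arrays lay below the other 4. The log2 change with miR-26a was -0.60 ± 0.07 (SE, 95% interval -0.79 to -0.42, adjusted p = 0.0120), which is a 1.52-fold lower signal. It was -0.59 in experiment 1 and -0.62 in experiment 2. The probe is placed at mm9 chr7:38882937-38882960 on the minus strand, a span of 24 bases for a probe of 60. Without control replicate 1 or control replicate 2 the adjusted p rose to 0.0917 and 0.119, at changes of -0.65 and -0.56, within a range of 0.00061 to 0.386 over all alternatives.

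The other Ccne1 probe, A_66_P125327, which holds the word ACTTGA shown above, read 9.21 and 9.24 in the control, 8.75 and 8.92 in the miR-26a and 9.48 and 9.24 in the sponge cells. Here too both miR-26a arrays lay below the other 4. Its change was -0.39 ± 0.11 (95% interval -0.67 to -0.12), and it did not pass over all probes (adjusted p = 0.0874). The changes in the 2 experiments were -0.46 and -0.32. The 2 probes measure parts of 1 transcript and are no replicates of each other.

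Cdk2, the kinase partner of cyclin E, had 1 probe, A_55_P2011852 (mm9 chr10:128135658-128135717, minus strand). It read 11.33 and 11.38 in the control, 10.96 and 11.00 in the miR-26a and 11.02 and 11.20 in the sponge cells. The control arrays lay above the other 4. The change with miR-26a was -0.37 ± 0.07 (95% interval -0.56 to -0.19, adjusted p = 0.0368), a 1.3-fold lower signal, with -0.37 in experiment 1 and -0.38 in experiment 2. The call was lost on leaving out any 1 of the 6 arrays, with adjusted p-values of 0.0573 (either sponge array), 0.0655 and 0.127 (miR-26a replicates 1 and 2) and 0.257 and 0.202 (control replicates 1 and 2). It was also lost without the block (0.120). Over all alternatives the adjusted p ranged from 0.00887 to 0.386.

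**Figure D2:**
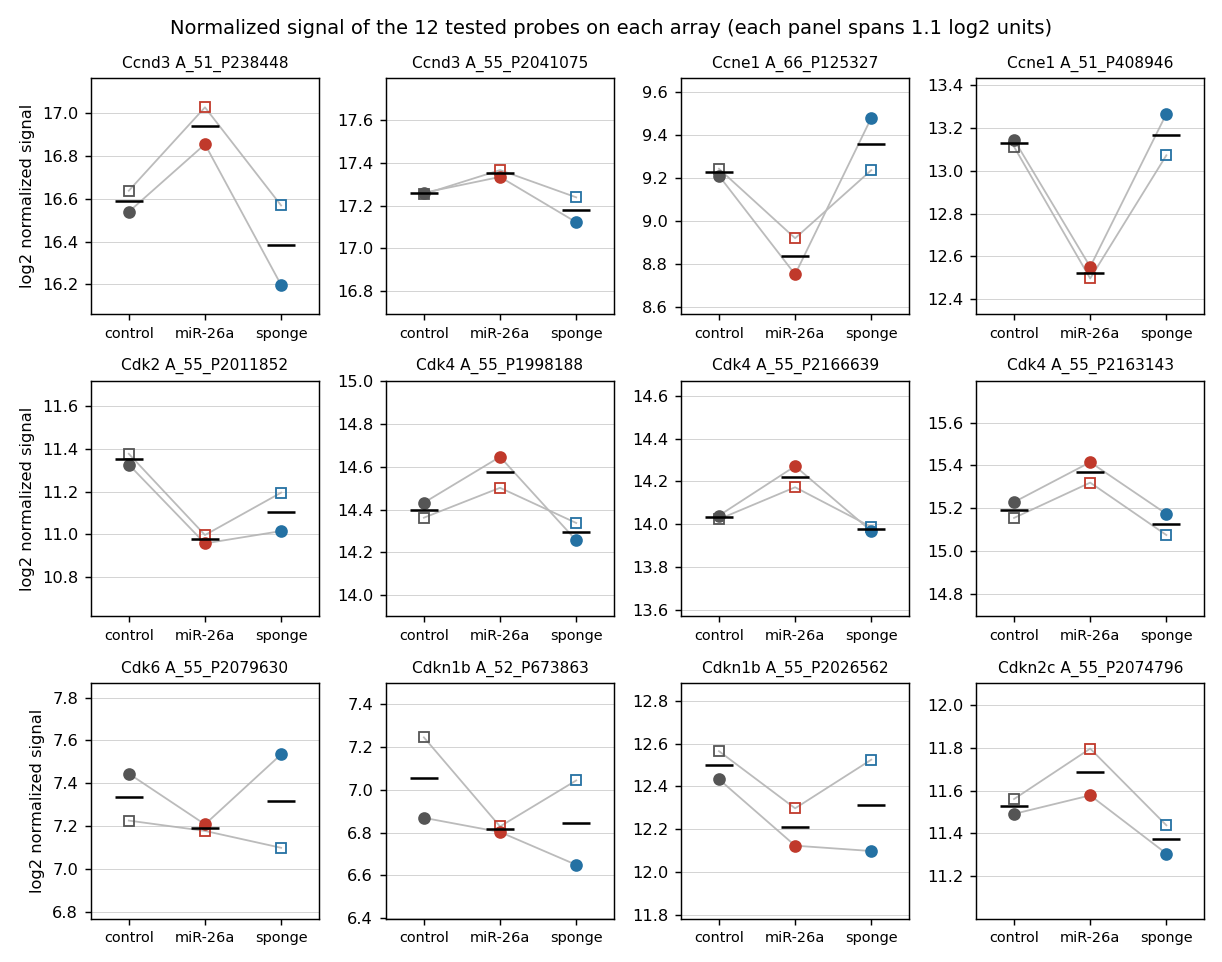
log2 normalized signal of each of the 12 tested probes on each array, by group, with filled circles for replicate 1, open squares for replicate 2, grey lines that join the arrays of an experiment and black bars at group means. Every panel spans the same range of log2 units. Both miR-26a arrays lie below the other 4 for the 2 Ccne1 probes and for Cdk2. They lie above the other 4 for both Ccnd3 probes, the 3 Cdk4 probes and Cdkn2c. Both control arrays lie above the other 4 for Cdk2.

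The partners of the D-type cyclins did not pass against the control. Cdk4 had 3 probes, which share 1 transcript. A_55_P2166639 read 14.04 and 14.02 in the control, 14.27 and 14.17 in the miR-26a and 13.97 and 13.99 in the sponge cells, so that both miR-26a arrays lay above the rest. Its change was 0.19 ± 0.07 (95% interval 0.02 to 0.36, adjusted p = 0.155). The probes A_55_P2163143 and A_55_P1998188 gave 0.18 ± 0.07 (adjusted p = 0.158) and 0.18 ± 0.08 (adjusted p = 0.235). At these probes too both miR-26a arrays were the highest. Of all alternatives, A_55_P2163143 passed with a variance trend alone (adjusted p = 0.0445). All 3 values were above 0 in both experiments, from 0.14 to 0.23. Cdk4 lies on the chromosome of Mir26a-2, whose hairpin ends 67921 bases before the start of Cdk4 (GRCm38.p6 chr10:127063535-127067288). The span of Cdk2, which was lower with miR-26a, begins 1702324 bases after that end. No link between these positions and the changes was tested, and the miR-26a of these cells came from a vector.

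Cdk6, the other partner, was dim. Its probe A_55_P2079630 read 7.45 and 7.23 in the control, 7.21 and 7.18 in the miR-26a and 7.54 and 7.10 in the sponge cells. The control and miR-26a arrays did not overlap, and the sponge arrays spread over both. The change with miR-26a was -0.14 ± 0.11 (95% interval -0.41 to 0.13, adjusted p = 0.461).

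Ccnd3 gave different sizes of change at its 2 probes. A_51_P238448 (mm9 chr17:47736267-47736326, plus strand) read 16.54 and 16.64 in the control, 16.86 and 17.03 in the miR-26a and 16.20 and 16.57 in the sponge cells. Both miR-26a arrays were the highest. The change with miR-26a was 0.35 ± 0.09 (95% interval 0.13 to 0.57) and did not pass (adjusted p = 0.0668). It passed with scaling to the 75th percentile (0.0412), with normexp background correction (0.0358) and with a variance trend (0.00721), in a range that reached 0.427. A_55_P2041075, which starts 253 bases downstream of the end of the first, read 17.26 and 17.25, 17.33 and 17.37, and 17.12 and 17.24, with a change of 0.09 ± 0.07 (adjusted p = 0.461). The value of the first probe was 0.26 above that of the second on the log2 scale, a difference that was not tested.

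None of the CDK inhibitor probes passed against the control. Cdkn1b, an inhibitor of the cyclin E complex, read 12.43 and 12.56 in the control, 12.12 and 12.30 in the miR-26a and 12.10 and 12.52 in the sponge cells at A_55_P2026562. The control and miR-26a arrays did not overlap, and the sponge arrays spread over both. The change with miR-26a was -0.29 ± 0.09 (95% interval -0.52 to -0.05, adjusted p = 0.121). Of all alternatives, it passed with a variance trend alone (adjusted p = 0.0451). The dim second probe, A_52_P673863, gave -0.24 ± 0.11 (adjusted p = 0.230), with -0.07 in experiment 1 and -0.42 in experiment 2. Cdkn2c, an inhibitor of CDK4 and CDK6, read 11.49 and 11.56 in the control, 11.58 and 11.80 in the miR-26a and 11.31 and 11.44 in the sponge cells at A_55_P2074796. The groups stood in the order sponge, control, miR-26a without overlap. Its change with miR-26a was 0.16 ± 0.07 (95% interval -0.02 to 0.34, adjusted p = 0.226).

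Against the same control arrays, the sponge moved none of the 12 probes past the threshold, neither lower (0% of all probes) nor higher (0.00992%, or 2 of 20168). The changes ran from -0.25 to 0.13, with a median of -0.09 beside 0.00 for all probes. At an unadjusted p under 0.05, 1 of the 12 was lower, beside 8.72% of all probes, and 0 were higher, beside 7.38%. This was Cdk2, at -0.25 ± 0.07 (95% interval -0.43 to -0.06, adjusted p = 0.241). An unpaired t-test gave 0 of the 12 at an unadjusted p under 0.05. The test of the 2 log ratios gave 1, Cdkn1b A_52_P673863. The share of all probes was not counted for either test.

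The 2 Ccne1 probes changed with the sponge by 0.04 ± 0.07 (95% interval -0.15 to 0.23, adjusted p = 0.813) and 0.13 ± 0.11 (-0.14 to 0.41, adjusted p = 0.582). The values were 0.12 and 0.27 in experiment 1 and -0.04 and -0.01 in experiment 2. Ccnd3 A_51_P238448 changed by -0.21 ± 0.09 (-0.43 to 0.01, adjusted p = 0.333) and Cdkn2c by -0.15 ± 0.07 (-0.33 to 0.03, adjusted p = 0.363). The 3 Cdk4 probes gave -0.10 to -0.05. Each of these intervals includes 0, and a p above the threshold does not show that the transcripts were alike.

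**Figure D3:**
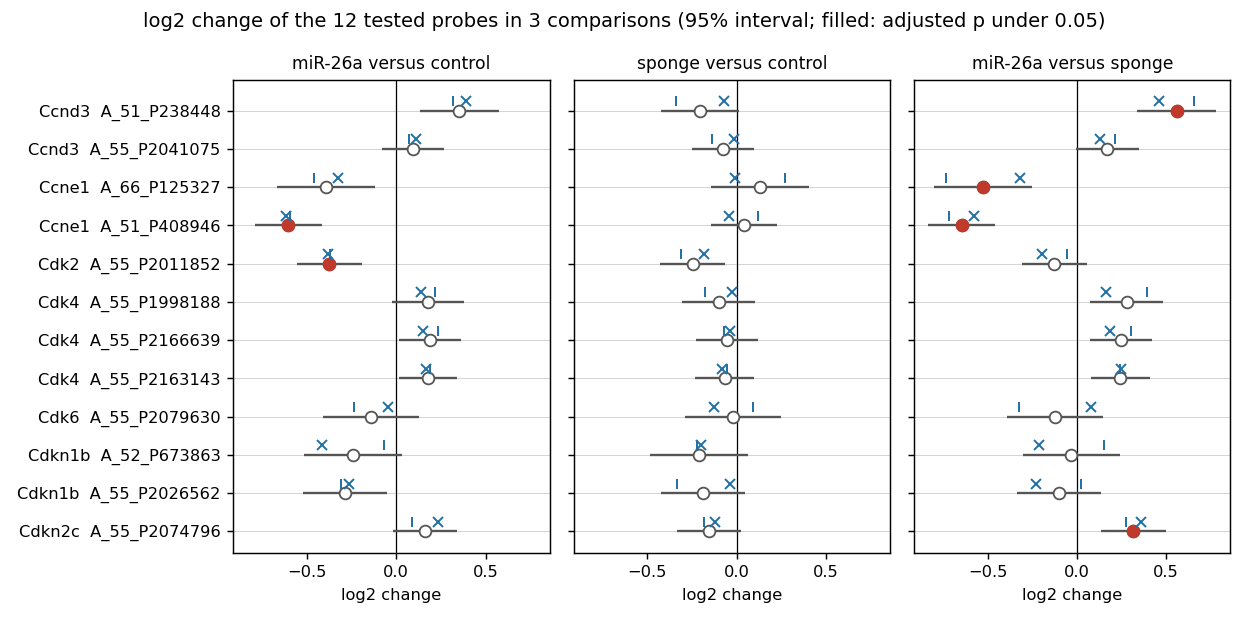
log2 change of the 12 tested probes with miR-26a against control, with the sponge against control and with miR-26a against the sponge. Circles are the estimates with 95% intervals, filled where the adjusted p was under 0.05, and the blue bars and crosses are the differences in experiments 1 and 2. Filled circles mark Ccne1 and Cdk2 in the first panel, none in the second, and Ccnd3, Cdkn2c and both Ccne1 probes in the third.

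Set directly against each other, miR-26a and sponge cells differed at 4 of the 12 probes. Both Ccne1 probes were lower with miR-26a, 16.7% of the 12 where 8.49% of all probes were lower. Ccnd3 A_51_P238448 and Cdkn2c were higher, again 16.7%, where 8.28% of all probes were higher. The medians were 0.07 for the 12 and 0.02 for all probes. This comparison uses the arrays of the previous comparisons again, and it is the test of whether the miR-26a and sponge changes differed from each other.

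Ccne1 A_51_P408946 was 1.56-fold lower with miR-26a than with the sponge, a log2 difference of -0.65 ± 0.07 (95% interval -0.83 to -0.46, adjusted p = 0.0076). The difference was -0.71 in experiment 1 and -0.58 in experiment 2. At A_66_P125327 it was -0.52 ± 0.11 (-0.80 to -0.25, adjusted p = 0.0324). Ccnd3 A_51_P238448 was 1.47-fold higher, at 0.56 ± 0.09 (0.34 to 0.78, adjusted p = 0.0159), and its other probe gave 0.17 ± 0.07 (adjusted p = 0.154). Cdkn2c was 1.24-fold higher, at 0.32 ± 0.07 (0.13 to 0.50, adjusted p = 0.0404). The Cdk4 probes gave differences of 0.24 to 0.28 that did not pass (adjusted p = 0.0589 to 0.0733). Cdk2 differed by -0.13 ± 0.07 (-0.31 to 0.05, adjusted p = 0.272).

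Leaving out 1 array ended several of these calls. Without sponge replicate 1, none of the 12 passed, with adjusted p-values of 0.0622 for Ccne1 A_51_P408946, 0.0885 for Ccnd3 A_51_P238448, 0.129 for Ccne1 A_66_P125327 and 0.150 for Cdkn2c. Without sponge replicate 2, Ccne1 A_51_P408946 alone passed (0.0496), and Cdkn2c was lost on leaving out any 1 of the 6 arrays. As said above, the titles of the control arrays point to an earlier deposit. In a fit without them, Ccne1 A_51_P408946 (0.0223) and Ccnd3 A_51_P238448 (0.0333) passed, while Ccne1 A_66_P125327 (0.0651) and Cdkn2c (0.0861) did not.

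**Figure D4:**
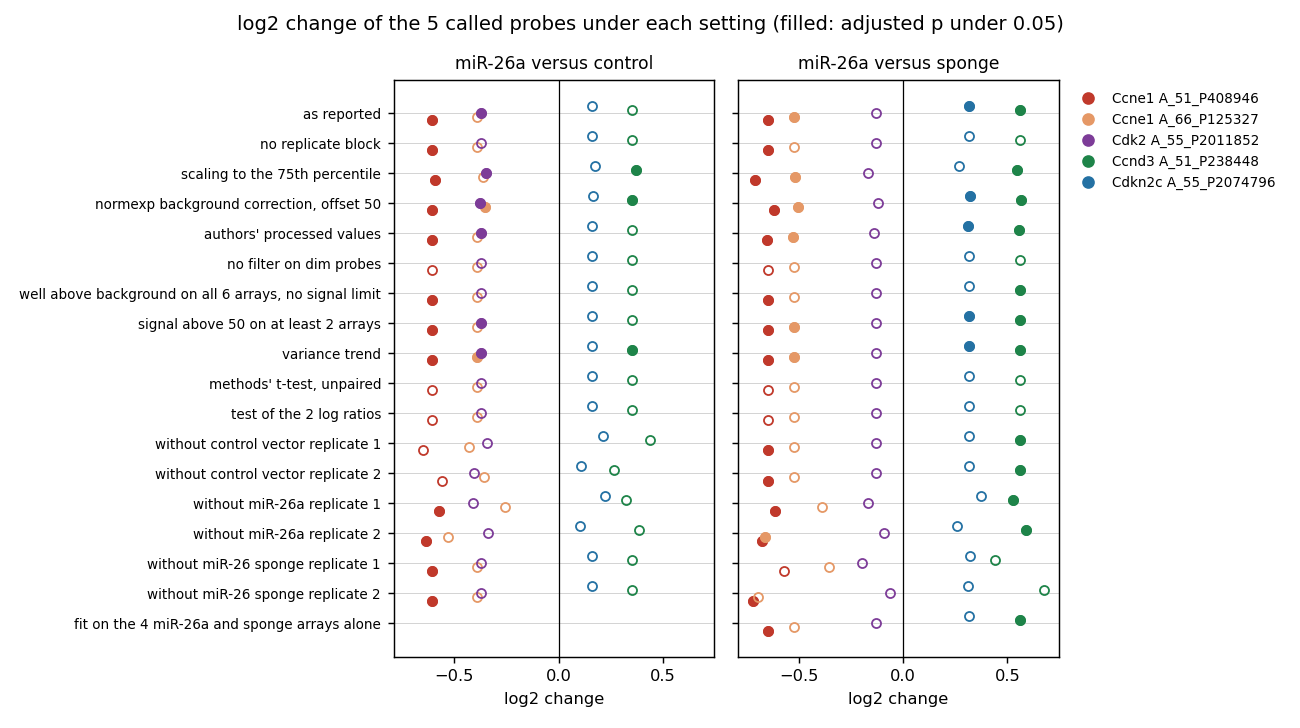
log2 change of the 5 probes that passed in any comparison, with miR-26a against control on the left and against the sponge on the right, under the reported fit and each alternative. Filled symbols mark an adjusted p under 0.05. Each symbol keeps its side of 0 under every setting drawn.

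Other genes of the G1 to S phase step were taken from a list of 39 genes, of which 38 have probes and 34 were tested, with 46 of 58 probes. With miR-26a, 2 of the 46 were lower (4.35%, beside 5.14% of all probes) and 4 higher (8.7%, beside 4.5%). None of the 8 tested probes of later cyclins and CDKs passed, nor any of the 4 of CDK activation. The other CDK inhibitors gave 3 tested probes, with Cdkn1a at 0.25 (adjusted p = 0.121), Cdkn2a at -0.28 (adjusted p = 0.116) and Cdkn2d at -0.14 (adjusted p = 0.327).

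The called probes belonged to protein turnover and to the E2F family. Fbxw7, the F-box protein that marks cyclin E for degradation, was higher with miR-26a at both probes, by 0.45 (adjusted p = 0.0216) and 0.48 (adjusted p = 0.0289). Skp2, the F-box protein that marks p27 for degradation, changed by -1.49 (adjusted p = 0.00317), and by -1.78 against the sponge (adjusted p = 0.00161). E2f1 was higher by 0.51 (adjusted p = 0.0167) and E2f2 changed by -0.47 (adjusted p = 0.0159). Fbxo31, an F-box protein that marks cyclin D1, was higher by 0.48 (adjusted p = 0.0179) at A_51_P356283 but gave 0.08 (adjusted p = 0.532) at its second probe. The median change of the 46 was 0.01, as for all probes.

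With the sponge, 0 of the 46 passed, and 2 were higher at an unadjusted p under 0.05, Skp2 at 0.29 and Fbxo31 at 0.24, where 7.38% of all probes were higher at that rule. Between miR-26a and sponge cells, 3 were lower with miR-26a (6.52%, beside 8.49% of all probes) and 4 higher (8.7%, beside 8.28%), shares near those of all probes. Rb1, the retinoblastoma gene, changed by -0.31 (adjusted p = 0.0436) and Rbl2, its relative, was higher by 0.36 (adjusted p = 0.0288). The other 5 probes were those of Skp2, E2f1, E2f2 and Fbxw7. The median of the 46 was 0.00 with the sponge and -0.01 between miR-26a and sponge cells, beside 0.00 and 0.02 for all probes.

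**Figure D5:**
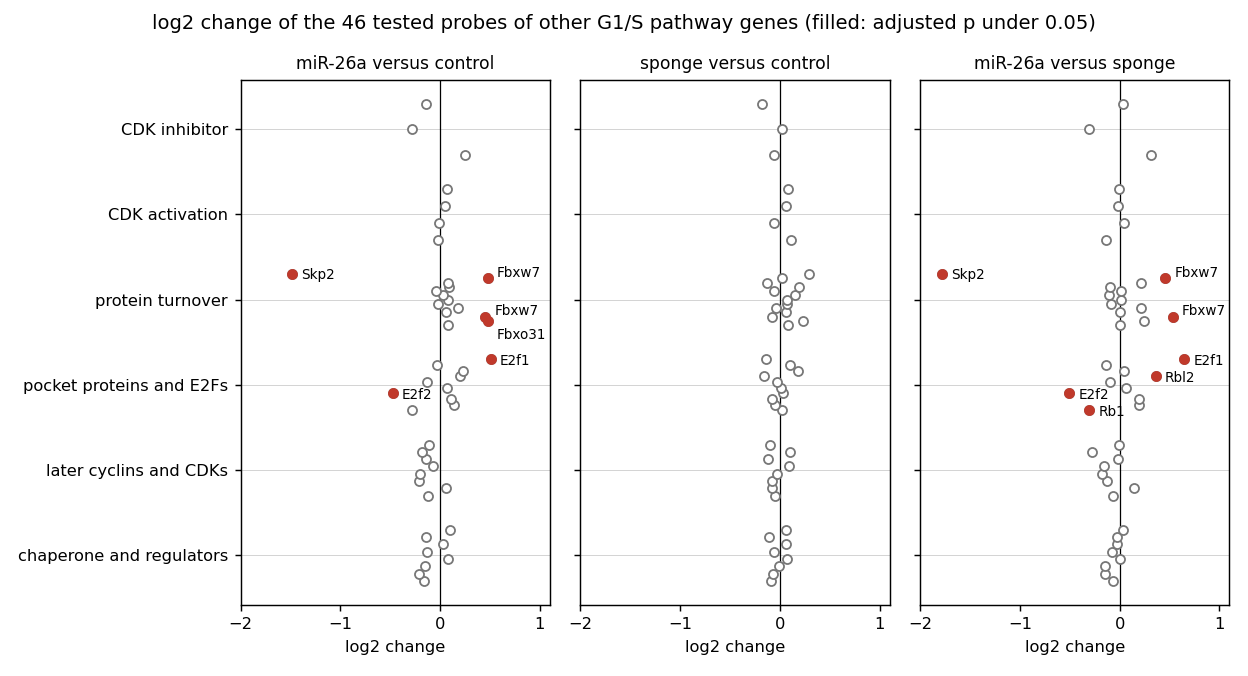
log2 change of the 46 tested probes of other genes of the pathway in the 3 comparisons, grouped by role, 1 circle a probe, filled and named where the adjusted p was under 0.05. The filled circles lie in the rows of protein turnover and of pocket proteins and E2Fs, from -1.78 for Skp2 to 0.65 for E2f1, and the sponge panel has none.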

How the data were processed

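Total RNA of 6 cultures was labelled with Cy3 and hybridised to single-colour Agilent mouse 8x60K arrays on 1 slide. The authors deposited scanner files with an intensity per spot (mean, background and processed signal, Agilent Feature Extraction 10.7.1.1 per the submitters' notes) and a table of quantile-normalized intensity, which is linear, with a median of 12.29 in every column and a log2 correlation of 0.99987 to 0.99998 with the scanner files. Gene names and mm9 positions are those of the array design.

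Here the processed signal was normalized by quantiles and put on the log2 scale, and the spots of each probe that bore no outlier flag were averaged. A probe was tested if it was well above background on 1 or more arrays and had a signal above 50 on 4 or more. Changes were tested with limma 3.58.1 (R 4.3.3), with Benjamini-Hochberg adjustment over all tested probes, and called at an adjusted p under 0.05. Intervals are at 95% from the moderated fit. No column of the files was without a sample. The number of arrays, 2 a group, limits the precision.

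The replicate number was taken as the experiment, since the methods normalize to each experiment's control. Arrays of 1 number deviated together, with correlations of 0.379, 0.588 and 0.454. Replicates correlated at 0.996 to 0.997. The members and lists were chosen with earlier results of these data known. Named genes are every member probe, and from the pathway list those called in a comparison. The tested CDK inhibitors of that list and some cell type markers are named too, a choice made after their values were seen. For Ccnd2 and Ccne2 the genes of most similar pattern were to be named, but neither has a tested probe. All 10 gene names matched RefSeq symbols. The fit was also run on simulated data as a check of the code, and the outcome is not used here. Tables and plots used Python 3.11.15, numpy 2.4.6, pandas 2.3.3 and matplotlib 3.10.9.

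Alternatives were no block, scaling to the 75th percentile, normexp with an offset of 50, the authors' table after log2 transformation (it had been planned as log2 values), 3 other filters, a variance trend, the methods' t-test, a test of the 2 log ratios and leaving out each array. A fit on the 4 miR-26a and sponge arrays was added after the data were seen. Transcript sequences were not used here.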

Additional observations from a re-analysis of the deposited data

How the results depend on the processing

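The number of the 12 probes called with miR-26a against control was 2. It was 1 without the replicate block (Ccne1 A_51_P408946, adjusted p = 0.0491), 3 with scaling to the 75th percentile and 4 with normexp. Probes well above background on all arrays, with no signal limit, gave 1, and a variance trend gave 6. Without a filter, by an unpaired t-test and by the test of the 2 log ratios, 0 of all probes passed in either direction. There the number of the 12 called was 0 as well, which says nothing particular to them. It was 0 to 1 on leaving out 1 array. For miR-26a against the sponge it was 4, and 1 without the block (Ccne1 A_51_P408946, adjusted p = 0.0272). Scaling to the 75th percentile gave 3 and normexp 6. Probes well above background on all arrays, with no signal limit, gave 2, and a variance trend gave 8. The 4 arrays alone gave 2, and the fit without a filter and both of those tests gave 0. Without a filter 55681 probes were tested in place of 20168, and the causes of the other shifts were not tested. For the sponge against control the count was 0 under every alternative. By the unpaired t-test, 4, 0 and 2 of the 12 had an unadjusted p under 0.05 in the 3 comparisons. By the test of the log ratios these were 4, 1 and 1. The share of all probes at that unadjusted rule was not counted for these 2 tests, so the counts are given without a reading. Over all probes, the calls with miR-26a against control fell from 1036 lower and 908 higher to 238 and 73 without the block. Those against the sponge fell from 1712 and 1669 to 632 and 365. Against control, all probes gave 949 and 929 with scaling to the 75th percentile, 1209 and 1086 with normexp and 1517 and 1434 with a variance trend. Probes well above background on all arrays gave 382 and 192 of 24972. Fits without 1 array leave a group with 1 array, which is assumed to vary like the others.

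Of the single changes, 514 were on the same side of 0 and of the threshold under an alternative, 50 lost the call, 13 gained it and 11 changed sign, each of these a change that was not called. With scaling to the 75th percentile, Cdk4 A_55_P2166639 changed by 0.0226 with the sponge. On leaving out 1 array, Cdk6 changed by -0.291 to 0.0059 with miR-26a, by -0.174 to 0.137 with the sponge and by -0.28 to 0.0316 between them. The range with the sponge was -0.0346 to 0.115 for Ccne1 A_51_P408946 and -0.0405 to 0.304 for Ccne1 A_66_P125327, and between miR-26a and sponge -0.21 to 0.149 for Cdkn1b A_52_P673863 and -0.238 to 0.0358 for Cdkn1b A_55_P2026562. Signals of Ccnd1, Ccnd2 and Ccne2 were too near background for any change to be measured.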

Other observations

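A probe that the array design names only by a transcript of the Cdk4 locus, A_55_P1998186, overlaps most of the Cdk4 probe A_55_P2163143 and was not counted among the 15, since it bears no gene name. It read 14.29 and 14.16 in the control, 14.44 and 14.31 in the miR-26a and 14.19 and 14.09 in the sponge cells. Its changes were 0.15 with miR-26a (adjusted p = 0.220), -0.09 with the sponge (adjusted p = 0.545) and 0.23 between them (adjusted p = 0.0650).

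The pattern of Ccne1 A_51_P408946 over the 6 arrays was most like those of Stradb (Pearson r = 0.9986), Sbno1 (0.9973) and Ubac1 (0.9969) among 15195 probes compared. With 6 arrays in 3 groups these values are a description. Ccne1 was chosen for this after its values were seen.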
